A study of Mus musculus with 6 samples.

Results

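Klrc1, Klrc2, Klrd1, Klrk1 and Styk1 are 5 genes assigned to the natural killer (NK) gene complex of mouse chromosome 6, a cluster of receptor genes. They were taken by symbol from a list chosen by their measured levels in earlier results of these data, in which they were low in Th17 cells carrying wild-type ADAR2. Their level in those cells is therefore a description and was not tested. All 5 were among the 55450 genes of the deposited tables, and all 5 were among the 14958 genes that passed the filter on low values. CD94 in the working name of the set is the product of Klrd1, and NKG2A and NKG2C are those of Klrc1 and Klrc2. The name does not cover all members, because NKG2D, the product of Klrk1, does not pair with CD94, and Styk1 encodes a membrane protein with a kinase-like domain and no C-type lectin domain.

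The series holds RNA-seq libraries of ribosome-depleted RNA from Th17 cultures of 2 wildtype mice. Naive CD4+ T cells from mice of 8 to 12 weeks were activated with anti-CD3ε at 0.25 µg/mL and anti-CD28 at 1 µg/mL. They were driven toward Th17, the helper state that makes interleukin 17, with TGF-β at 0.1 ng/mL and IL-6 at 20 ng/mL. At 24 h they were infected with an MSCV retrovirus, made from murine stem cell virus, and then kept for another 48 h with TGF-β at 0.3 ng/mL and the same IL-6, so that all cells were taken at 72 h. The 3 groups, of 2 libraries each, carried the empty vector, ADAR2_WT, or ADAR2_E396A, which the submitters describe as enzymatically dead. ADAR2 turns adenosine into inosine in double-stranded RNA. All 3 groups therefore share the activation, the cytokines and the infection, and whether transduced cells were sorted is not given in the sources used here. Each construct was compared with the empty vector within a mouse, the mice being called donor A and donor B here. Which libraries carried which construct was read from the names of the deposited tables and which share a donor from the authors' statistics, since neither is labelled on the libraries. Separate mice make the donors independent, but 2 donors leave the spread of each gene poorly known.

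CD94 forms a dimer with NKG2A or NKG2C on NK cells and some activated T cells, and these dimers read the non-classical MHC molecule Qa-1, encoded by H2-T23. The NKG2A dimer inhibits the cell through the phosphatase SHP-1, while the NKG2C dimer activates it through the adapter DAP12. NKG2D is an activating homodimer that uses the adapter DAP10 and, in mice, DAP12, and it binds stress-induced ligands of the RAE-1, H60 and MULT1 families. On T cells these receptors are best known from activated and memory CD8 cells, and CD4 T cells carry them less often.

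The genes with a RefSeq promoter entry were Klrk1, Klrc2 and Klrc1, 3 of the 5; Klrd1 and Styk1 had none. Their promoters are shown because the genes were low together, and because short motifs of lymphocyte transcription factors can be read in them. Each sequence runs 5′ to 3′ on the gene's own strand, from 250 bases before to 50 bases after the annotated start (build GRCm38.p6, RefSeq). Capitals mark matches, on either strand, to the RUNX motif TGTGGT, which reads ACCACA on the other strand, and to the AP-1 motif TGANTCA.
Klrk1 promoter (chr6:129623815-129624114, minus strand): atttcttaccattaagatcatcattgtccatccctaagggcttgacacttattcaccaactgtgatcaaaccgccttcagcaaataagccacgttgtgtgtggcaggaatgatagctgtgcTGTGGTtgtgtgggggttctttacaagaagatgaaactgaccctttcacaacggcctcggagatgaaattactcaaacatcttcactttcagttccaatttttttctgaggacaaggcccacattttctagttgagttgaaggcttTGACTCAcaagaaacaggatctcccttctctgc
Klrc2 promoter (chr6:129660547-129660846, minus strand): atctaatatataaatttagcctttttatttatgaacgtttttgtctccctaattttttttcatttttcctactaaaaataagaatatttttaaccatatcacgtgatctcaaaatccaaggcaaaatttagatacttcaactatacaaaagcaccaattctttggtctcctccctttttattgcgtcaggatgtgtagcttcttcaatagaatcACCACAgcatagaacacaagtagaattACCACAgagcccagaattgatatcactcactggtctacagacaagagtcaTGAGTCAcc
Klrc1 promoter (chr6:129678924-129679223, minus strand): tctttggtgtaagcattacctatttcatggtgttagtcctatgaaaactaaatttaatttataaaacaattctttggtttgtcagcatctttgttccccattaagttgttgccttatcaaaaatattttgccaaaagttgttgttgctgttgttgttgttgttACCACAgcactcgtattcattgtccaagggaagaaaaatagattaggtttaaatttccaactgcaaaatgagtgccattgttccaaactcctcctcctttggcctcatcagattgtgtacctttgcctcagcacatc

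All 3 promoters held the RUNX letters, which were found in 16.8% of 32851 RefSeq promoters of the same length. Counting the start as 0, they lay at -129 in Klrk1, at -36 and -9 in Klrc2 and at -87 in Klrc1. The AP-1 letters lay at 17 in Klrk1 and at 41 in Klrc2 and were found in 7.8% of all promoters. The STAT letters TTCNNNGAA (8.3% of promoters), the T-box letters TCACAC (14.5%) and the NFIL3 letters TTANGTAA (2.3%) had no match in the 3 windows. The matches did not overlap each other. A second, overlapping RefSeq entry of Klrc2 held the same 3 matches. These are matches of letters in a window, and binding was not measured here.

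Klrc1 and Klrc2 are close relatives, which bears on how reads were divided between them. Their longest coding sequences were 82.8% identical over 714 aligned bases, and the longest stretch they shared without a mismatch was 100 bases, starting at base 633 of the Klrc1 and base 615 of the Klrc2 coding sequence (GENCODE vM21, build GRCm38). It is shown because a read that falls wholly within it cannot be given to either gene.
Klrc1 and Klrc2 shared coding stretch: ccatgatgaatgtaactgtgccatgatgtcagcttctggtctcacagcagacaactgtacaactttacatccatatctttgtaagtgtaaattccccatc
Of all 100-base windows in the transcripts of Klrc1, 14.6% also occurred in Klrc2, and 7.1% of those of Klrc2 occurred in Klrc1 or in Klrc3, its neighbour. Klrd1, Klrk1 and Styk1 shared no such window with a transcript of any other GENCODE gene. In coding sequence Klrc2 is closer to Klrc3, with 95.3% identity over 663 aligned bases and a longest shared stretch of 203 bases. By 100-base windows of its transcripts, it shared 4.9% with Klrc1 and 2.2% with Klrc3. The level of Klrc2, the rarer gene, is therefore the least certain of the 5. No other annotated gene overlapped a member.

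Klrd1, Klrk1, Klrc2 and Klrc1 lie close together in this order on chromosome 6 of the mm10 build. Klrd1, the gene for CD94, spans 129591782 to 129598775 on the plus strand. Klrk1 spans 129610323 to 129623864, Klrc2 129647496 to 129660689 and Klrc1 129666015 to 129678973, all on the minus strand. Styk1 lies apart, at 131299142 to 131353597 on the minus strand, 1707.4 kb from Klrd1 when lower gene ends are compared.

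The libraries held 16496328 to 21897166 reads in genes. Adarb1, the gene for ADAR2, had 3672 and 3333 normalized counts (donor A, then donor B) in empty-vector cells, 18423 and 18999 with ADAR2_WT and 15644 and 14920 with ADAR2_E396A. Both constructs were thus overexpressed, by 2.42 and 2.13 on the log2 scale (SE 0.07 for each; limma adjusted p = 2.21e-06 and 6.48e-06), and Adarb1 was higher with ADAR2_WT than with ADAR2_E396A in both donors, by 0.29 (SE 0.07, 95% interval 0.14 to 0.44, limma adjusted p = 0.161). A gene count does not show which of the 2 constructs a library carries. Cd4 was between 12012.8 and 15997.1 normalized counts and Cd3e, a chain of the T cell receptor complex, between 3731.2 and 4741.5, so T cell transcripts were abundant in every library. Il17a, the Th17 cytokine gene, was between 2436.9 and 18144.9 and was lower in the 3 libraries of donor A than in those of donor B.

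Klrc1, the gene for the inhibitory chain NKG2A, was the most abundant member. It had 1051.8 and 993.3 normalized counts in empty-vector cells of donors A and B, 697.5 and 1243 in ADAR2_E396A cells and 238.8 and 320.7 in ADAR2_WT cells. The ADAR2_WT libraries were both below the other 4, and the ADAR2_E396A libraries lay on either side of the empty-vector pair. Against the empty vector of the same donor, ADAR2_WT cells had 4.40-fold (donor A) and 3.10-fold (donor B) fewer Klrc1 counts. The mean log2 difference over the 2 donors was -1.88 (limma SE 0.18). Each SE given here is limma's, from all 6 libraries with spread borrowed across genes. It does not measure the spread between the 2 donors for that gene, which can be larger. In bulk RNA, fewer cells with a receptor and less of its RNA per cell cannot be told apart.

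Klrd1, the gene for CD94 that NKG2A and NKG2C need as partner, had 172.9 and 109.1 normalized counts in empty-vector cells, 104.4 and 109 with ADAR2_E396A and 18.4 and 34.6 with ADAR2_WT. It showed the largest single-donor difference of the 5, a 9.37-fold lower count with ADAR2_WT in donor A, from 166 against 19 reads, beside 3.15-fold in donor B. The mean log2 difference was -2.39 (limma SE 0.33), from -3.16 in donor A and -1.63 in donor B. In donor B the ADAR2_E396A and empty-vector levels differed by less than counting error, with a ratio of empty vector to ADAR2_E396A of 1.00 (95% counting interval 0.769 to 1.30).

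Klrc2, the gene for the activating chain NKG2C, was rare. It was counted with 31 and 27 reads in empty-vector cells, 15 and 32 in ADAR2_E396A cells and 8 and 3 in ADAR2_WT cells. The ratio of empty vector to ADAR2_WT, corrected for library size, was 4.16 (95% counting interval 1.87 to 10.5) in donor A and 7.60 (2.34 to 39.1) in donor B. Both intervals are wide because so few reads were counted, and they cover counting error only. The log2 difference of -2.27 (SE 0.49) moved to -1.72 with a pseudocount of 5 in place of 1.

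Klrk1, the gene for the activating receptor NKG2D, had 288.5 and 198.7 normalized counts in empty-vector cells, 232.5 and 197 with ADAR2_E396A and 76.7 and 108.5 with ADAR2_WT. The size of the difference varied between donors: the ADAR2_WT level was 3.76-fold lower in donor A and 1.83-fold lower in donor B (mean log2 difference -1.38, SE 0.23). Styk1 had 108.3 and 85.7 normalized counts in empty-vector cells, 52.2 and 64.5 with ADAR2_E396A and 32 and 33.5 with ADAR2_WT. Its ADAR2_WT level was 3.38-fold and 2.56-fold lower than with the empty vector (mean log2 difference -1.53, SE 0.24). The 3 groups of Styk1 did not overlap, with ADAR2_E396A between the others. Both ADAR2_E396A libraries were below both empty-vector libraries in Styk1 and in Klrd1, and in 11.9% of all genes tested. For Klrd1 this rests on 109 against 109.1 in donor B, within counting error; the counting ratio in donor A, empty vector over ADAR2_E396A, was 1.66 (95% interval 1.29 to 2.13).

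**Figure D1:**
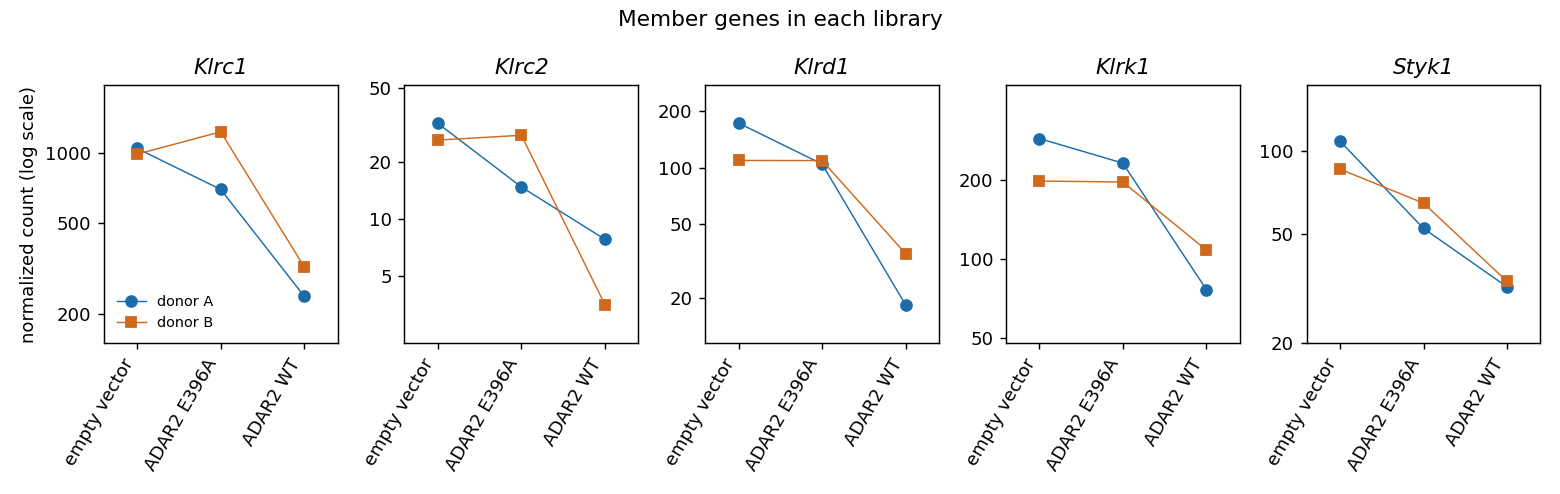
Normalized counts of the 5 members on log axes, 1 panel per gene, with 1 point per library and a line joining the libraries of a donor. The 2 ADAR2_WT libraries are the lowest in every panel, and in Klrc1 the ADAR2_E396A libraries, at 697.5 and 1243, stand on either side of the empty-vector pair.

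In all 5 members both ADAR2_WT libraries were below both empty-vector libraries and below both ADAR2_E396A libraries. Over all 14958 genes tested, both ADAR2_WT libraries were below both empty-vector libraries in 18.5% and below both ADAR2_E396A libraries in 17.3%. The members were chosen for this pattern, so their count is not evidence for it. For the same reason their ADAR2_WT differences carry no p-value. The median log2 difference between ADAR2_WT and the empty vector over all genes was -0.002.

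The comparison that the choice of members used least is that of ADAR2_E396A with the empty vector. It shares the empty-vector libraries with that choice, so an empty-vector level high by chance would also make a member lower here. Its p-values are therefore not independent of the choice. By limma's test, with a threshold of 0.05 on the adjusted p, none of the 5 members passed, and 1, Styk1, had an unadjusted p under 0.05. Over all genes 0.0134% passed in this comparison, 2 genes in all, and 3.89% had an unadjusted p under 0.05, while edgeR's quasi-likelihood test called none of the members and 2 genes in all. With 2 donors a p above the threshold does not show that a level was unchanged.

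Styk1 had the largest mean difference relative to its error, -0.72 in log2 (SE 0.24, 95% interval -1.27 to -0.18), with -1.04 in donor A and -0.40 in donor B. Its unadjusted limma p was 0.0153 and its adjusted p 0.999. In the authors' deposited DESeq2 statistics its error was larger, 0.48, and its unadjusted Wald p was 0.13. By limma the differences of the other 4 were -0.13 for Klrc1 (95% interval -0.54 to 0.28), -0.50 for Klrc2 (-1.62 to 0.63), -0.36 for Klrd1 (-1.11 to 0.38) and -0.16 for Klrk1 (-0.68 to 0.36). Each of these 4 intervals holds 0, and the 2 wide ones, of Klrc2 and Klrd1, leave room for differences in either direction.

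The members differed between donors in this comparison. In donor A all 5 were lower with ADAR2_E396A, with log2 differences of -0.59 for Klrc1, -1.08 for Klrc2, -0.72 for Klrd1, -0.31 for Klrk1 and -1.04 for Styk1. In donor B the same differences were 0.32, 0.08, 0, -0.01 and -0.40. Opposite directions in the 2 donors were found in 54.7% of all genes. Leaving out 1 library of donor A turned the sign for 4 members. Without donor A's empty-vector library, Klrc1 had 0.22, Klrd1 0.20 and Klrk1 0.17, and without the ADAR2_E396A library of donor A, Klrc1 had 0.20 and Klrc2 0.25. No member passed under any of 14 alternatives, and the lowest adjusted p was 0.111, for Klrc1 without the ADAR2_E396A library of donor B.

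**Figure D2:**
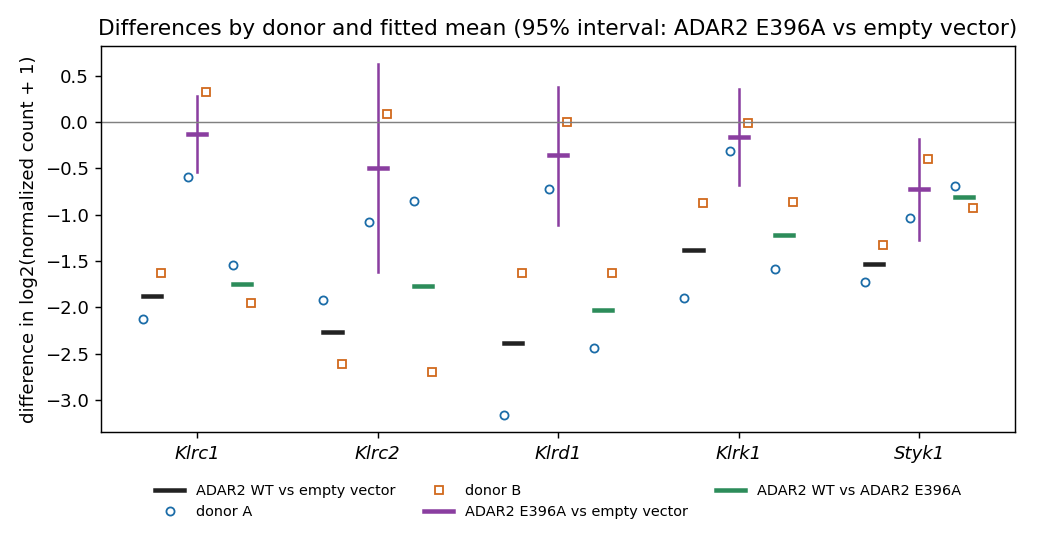
Differences in log2(normalized count + 1) for the 5 members in 3 comparisons, with open circles for donor A, open squares for donor B and a thick bar for the fitted mean. Vertical lines give the 95% limma interval for ADAR2_E396A against the empty vector, the comparison the choice of members used least. It shares the empty-vector libraries with that choice. Of these intervals only that of Styk1, from -1.27 to -0.18, lies below 0.

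Set side by side with the E396A construct, the ADAR2_WT level of Klrc1 differed by -1.75 in log2 (-1.54 in donor A and -1.95 in donor B). The differences were -1.77 for Klrc2, -2.03 for Klrd1, -1.22 for Klrk1 and -0.81 for Styk1. Styk1 had the smallest of these 5, and its ADAR2_E396A level was itself below that of the empty vector. This comparison shares the ADAR2_WT libraries with the one that chose the members and carries no test.

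**Figure D3:**
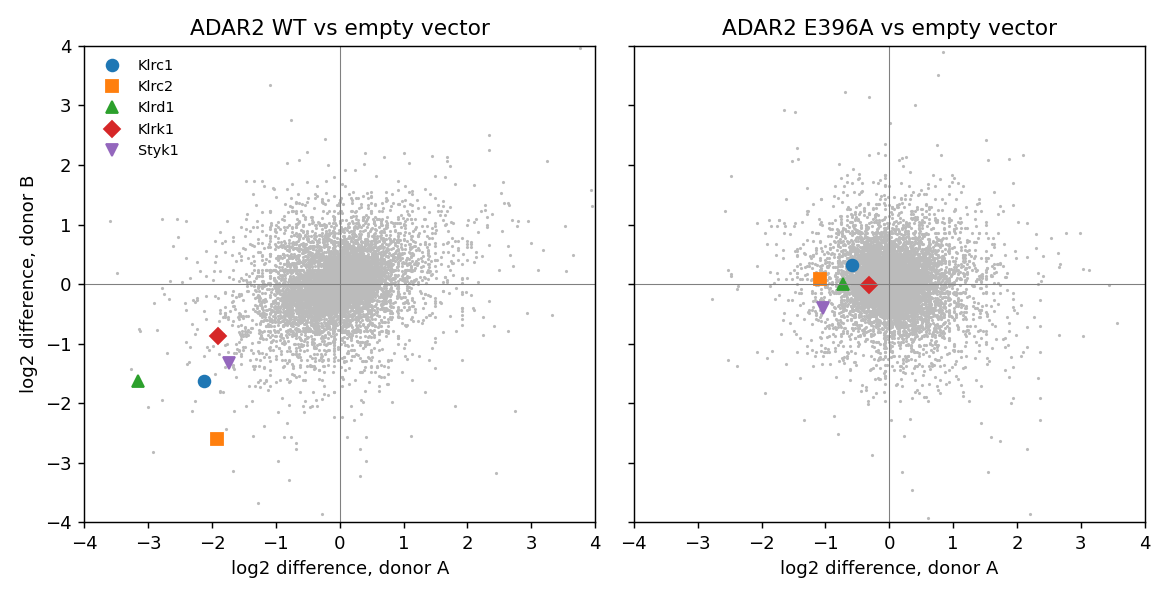
Log2 differences from the empty vector in donor A (horizontal) and donor B (vertical) for the 14958 tested genes in grey, with the 5 members as coloured symbols, for ADAR2_WT (left) and ADAR2_E396A (right). The axes end at 4 in both directions, which leaves out 6 genes. The members stand in the lower left for ADAR2_WT and left of the vertical line for ADAR2_E396A, where their donor B values ran from -0.40 (Styk1) to 0.32 (Klrc1).

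The authors' deposited tables give like fold changes, with errors larger than limma's for every member with either construct. With ADAR2_E396A the error was 0.44 for Klrc1, against 0.18 by limma, and 0.48 for Styk1, against 0.24. With ADAR2_WT it ranged from 0.19 for Klrc1, against 0.18 by limma, to 0.98 for Klrc2, against 0.49. With the sign turned so that a lower level with the construct is negative, the authors' deposited table for ADAR2_E396A has log2 fold changes of -0.13 for Klrc1, -0.51 for Klrc2, -0.36 for Klrd1, -0.16 for Klrk1 and -0.73 for Styk1. The authors' deposited table for ADAR2_WT has -1.88, -2.44, -2.42, -1.39 and -1.56 in the same order.

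Per kilobase of exon, the members kept 1 order in all 6 libraries: Klrc1 was the most abundant, followed by Klrd1, Klrk1, Styk1 and Klrc2. Klrc1 had 530.2 and 500.7 normalized counts per kb with the empty vector, against 135 and 85.2 for its partner Klrd1. The ratio of Klrc1 to Klrd1 per kb was 3.93 and 5.88 with the empty vector, 4.31 and 7.37 with ADAR2_E396A and 8.36 and 5.98 with ADAR2_WT. It was higher with ADAR2_WT than with the empty vector in donor A, and in donor B it was nearly the same. Reads of Klrc1 far outnumbered those of Klrc2: Klrc2 took 2.98% and 2.58% of the reads of Klrc1 and Klrc2 together with the empty vector, 2.08% and 2.20% with ADAR2_E396A and 3.15% and 1.07% with ADAR2_WT. These shares are of reads, and they do not correct for the greater exon length of Klrc2 or count Klrc3.

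Together the 5 members took 83.2 and 73.8 CPM (counts scaled by the library total) with the empty vector, 57.4 and 86.0 with ADAR2_E396A and 19.1 and 26.3 with ADAR2_WT. Over the 6 libraries the log2 values of any 2 members had a Pearson correlation of 0.805 (Klrc2 with Klrk1) to 0.990 (Klrd1 with Klrk1). The libraries share donors and groups, and these correlations only describe them.

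Other receptor genes of the complex were mostly silent. Of 35 such genes in the tables, 9 had no read in any library and 7 reached the tested set. None of the 7 passed limma's test or edgeR's in any of the 3 comparisons. For ADAR2_WT against the empty vector, ADAR2_E396A against the empty vector and ADAR2_WT against ADAR2_E396A, 3, 0 and 5 had an unadjusted limma p under 0.05. Over all genes tested, 14.1%, 3.89% and 12.4% had such a p in the same order. The median log2 difference of the 7 was -0.11 with ADAR2_WT and -0.14 with ADAR2_E396A, beside medians of -0.002 and -0.009 over all genes. The most abundant were Clec2d, which encodes a ligand of NKR-P1 receptors, with a log2 difference of 0.01 (SE 0.10), and the activation marker Cd69 with 0.21 (SE 0.10), both for ADAR2_WT.

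Near the members the picture varied over short distances. The following genes were chosen after their values were seen. Klri2, a lectin-like receptor gene beyond Klrc1, had 62.5 and 47.7 normalized counts in empty-vector cells, 41.4 and 48.8 with ADAR2_E396A and 8.7 and 20.8 with ADAR2_WT (log2 difference -1.93, SE 0.38, limma adjusted p = 0.0699 for ADAR2_WT). Klre1, on the other side of Klrd1, had 39.6 and 21.4, 29.6 and 33.1, and 10.7 and 15 normalized counts in the same order (-1.14, SE 0.39, adjusted p = 0.252 by limma). Klrc3, a relative of Klrc2 that encodes NKG2E, a further CD94 partner, was below the filter and had 9 and 5 reads with the empty vector, 4 and 8 with ADAR2_E396A and none with ADAR2_WT. All 3 neighbours, picked for their values, had their lowest pair of libraries in the ADAR2_WT group. Over all genes tested, both ADAR2_WT libraries were below both empty-vector libraries in 18.5% and below both ADAR2_E396A libraries in 17.3%. Klri2 and Klre1 did not pass the test.

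The 6 tested genes of the 162.6 kb from Klre1 to Klri2 were the 4 clustered members, Klre1 and Klri2, and their log2 differences with ADAR2_WT ran from -2.39 to -1.14. The members were chosen for being low with ADAR2_WT, and the ends of this stretch were picked after the values were seen. Its contrast with the genes around it is therefore a description only. The 12 other tested genes within 1 Mb of Klrd1 ran from -1.08 (Clec2i, SE 0.25, limma adjusted p = 0.116) to 1.88 (Olr1, an oxidized lipoprotein receptor gene, SE 0.87, adjusted p = 0.378), both named after their values were seen. Of 96 non-member genes within 1 Mb, 48 had no read and 14 were tested. None of the 14 passed limma's test or edgeR's with ADAR2_WT. Of them 4 had an unadjusted limma p under 0.05, beside 14.1% of all genes tested. The median of the 14 was -0.11 for ADAR2_WT and -0.08 for ADAR2_E396A.

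**Figure D4:**
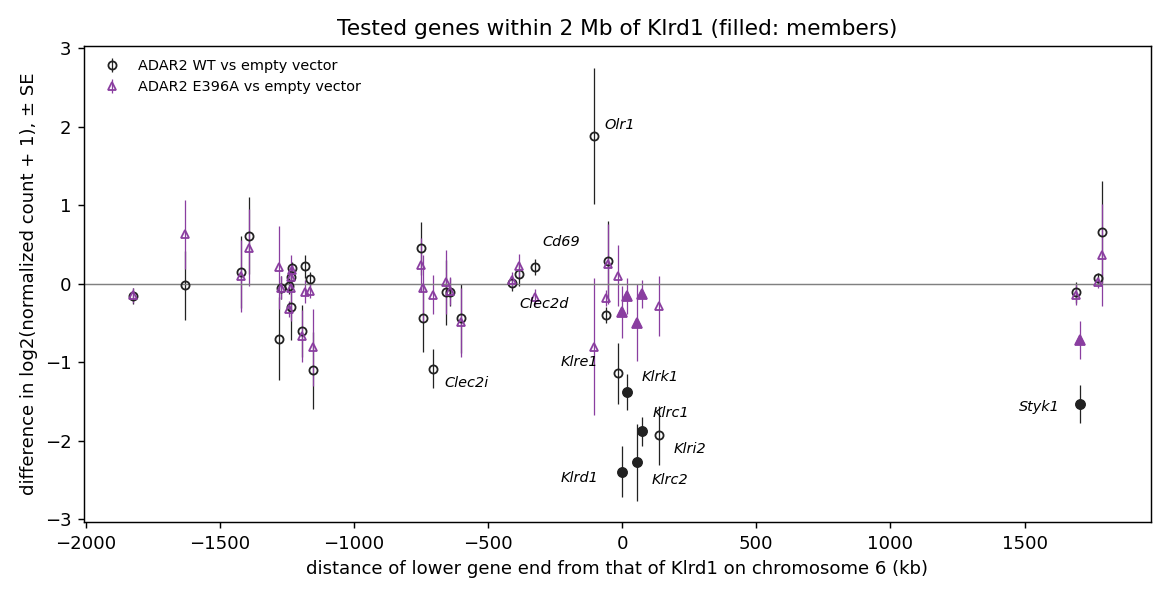
Mean differences in log2(normalized count + 1) from the empty vector, with standard errors, for tested genes within 2 Mb of Klrd1, by distance along chromosome 6 in kb (circles ADAR2_WT, triangles ADAR2_E396A, members filled). The ADAR2_WT values from Klre1 to Klri2, a stretch whose ends were picked after the values were seen, run from -2.39 to -1.14. Styk1 stands apart at 1707.4 kb.

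The adapters and signalling proteins of these receptors were measured more fully, with 19 of 20 genes tested. With ADAR2_WT 1 passed, Plcg2, and over all genes 0.816% did. This list, like the other gene lists here, was drawn up with earlier results of these data known, so such counts only describe it. Between the constructs none of the 19 passed by limma or edgeR, and 0.0669% of all genes passed by limma. In that comparison 5 of the 19 had an unadjusted limma p under 0.05, beside 12.4% of all genes tested. Plcg2 encodes a phospholipase C used by activating NK receptors and had 771.7 and 446 normalized counts in empty-vector cells, 516.2 and 408.8 with ADAR2_E396A and 401.9 and 301.1 with ADAR2_WT. Plcg2 fell with ADAR2_WT by 0.75 on the log2 scale (SE 0.13, limma adjusted p = 0.0426), with a lower level in both donors. The call was lost without the donor term and when donor A's empty-vector library or either ADAR2_WT library was left out, when 0 genes of this list passed. The median of the 19 was -0.17 with ADAR2_WT and -0.04 with ADAR2_E396A, and in each of these comparisons 15 were below 0, beside 50.4% and 53.1% of all genes tested.

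Hcst, which encodes DAP10, the adapter of NKG2D, had 80.2 and 60.4 normalized counts in empty-vector cells, 68.9 and 55.4 with ADAR2_WT and 111.3 and 92.4 with ADAR2_E396A. Its difference of -0.17 with ADAR2_WT (SE 0.19, limma adjusted p = 0.735) did not pass. With ADAR2_E396A it was at 0.54 (SE 0.19, adjusted p = 0.999 by limma), and between the constructs at -0.71 (SE 0.19, adjusted p = 0.206 by limma). The groups did not overlap in either comparison. Over all genes tested, both ADAR2_E396A libraries were above both empty-vector libraries in 11.5%. Both ADAR2_WT libraries were below both ADAR2_E396A libraries in 17.3%. Tyrobp, which encodes DAP12, the adapter of NKG2C, was between 0 and 4.2 normalized counts in all libraries and was not tested. Both were named after their values were seen, as the adapters of the members.

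Of the ligand genes, H2-T23 and Ulbp1 were abundant in the same cultures. H2-T23, the gene for Qa-1, had 5112.3 and 5246.2 normalized counts in empty-vector cells, 5498.1 and 5654.5 with ADAR2_WT and 5015.5 and 5123.5 with ADAR2_E396A. Its log2 difference was 0.11 with ADAR2_WT (SE 0.06, limma adjusted p = 0.464). Ulbp1, the gene for the NKG2D ligand MULT1, was at 0.15 (SE 0.11, limma adjusted p = 0.598). These were the 2 tested genes of 6 ligand genes found by symbol, and neither passed limma's test or edgeR's in any comparison. Between the constructs both had an unadjusted limma p under 0.05, as did 12.4% of all genes tested. Both were higher with ADAR2_WT, by 0.14 (H2-T23, limma adjusted p = 0.402) and 0.33 (Ulbp1, limma adjusted p = 0.299). The other 4 were rare or absent: Raet1d had 0 to 4 reads a library, Raet1e 0 to 2, H60b 2 to 8 and H60c 0 in all. Raet1a, Raet1b, Raet1c and H60a were not analysed here.

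Of 32 regulators of NK receptor genes, transcription factors and cytokine receptors for IL-2, IL-12 and IL-15 signals, 31 were tested. None passed limma's test or edgeR's in any comparison. At an unadjusted limma p under 0.05 were 6 for ADAR2_WT against the empty vector, 0 for ADAR2_E396A against it and 6 between the constructs. Over all genes tested the shares were 14.1%, 3.89% and 12.4% in the same order. The median of the 31 was -0.13 with ADAR2_WT. Il2ra, the α chain of the IL-2 receptor, had a log2 difference of 0.06 (SE 0.07) and the transcription factor gene Ets1 of -0.14 (SE 0.07). Runx3, whose factor reads the RUNX motif and which was named after the motif was seen, had 3591.8 and 2924.5 normalized counts in empty-vector cells and 2714.6 and 2748.2 with ADAR2_WT (-0.25, SE 0.09, limma adjusted p = 0.291). Runx1, whose factor reads the same motif and which was named for the same reason, had 942.5 and 1137.5 against 1041.8 and 1175.7 and was at 0.10 (SE 0.08, limma adjusted p = 0.624), and Cbfb, the gene for the partner of both factors, at 0.09 (SE 0.07, limma adjusted p = 0.624).

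Cytotoxic granule genes, which NK receptors often accompany, had a median of -0.51 with ADAR2_WT over 12 tested genes. Of them 2 passed, and both fell, where 0.816% of all genes passed and 0.374% fell. The list was drawn up with earlier results of these data known, so this count is no test of the list. Nkg7, a granule membrane protein gene, had 635.3 and 230.8 normalized counts in empty-vector cells, 541.8 and 172.6 with ADAR2_E396A and 201 and 85.4 with ADAR2_WT. It fell with ADAR2_WT by 1.54 on the log2 scale (SE 0.14, limma adjusted p = 0.0049). It was also the gene of this list that passed against ADAR2_E396A, where it fell by 1.22 (limma adjusted p = 0.0269). Ctsw, a granule protease gene, fell with ADAR2_WT by 1.01 (SE 0.12, limma adjusted p = 0.0177). Its empty-vector levels were 610.3 and 245.4, so that both granule genes were higher in donor A. No gene of this list passed without the donor term or without the ADAR2_WT library of donor A.

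Among 16 tested NK-associated receptors outside the complex, with a median of -0.40 with ADAR2_WT, 1 fell and 1 rose, where 0.374% of all genes fell and 0.441% rose. Earlier results were known when this list too was drawn up, and its counts are a description. Cd96 fell by 0.72 (SE 0.11, limma adjusted p = 0.0371), from 523.8 and 438.2 normalized counts to 290.3 and 290.7. Cd226, which encodes an activating receptor that shares a ligand with CD96, rose by 0.55 (SE 0.09, limma adjusted p = 0.0391), from 835.2 and 1480.3 to 1343.7 and 1984.4. Both calls were lost without the donor term and when donor A's empty-vector library or either ADAR2_WT library was left out. In ADAR2_E396A cells no gene of the lists named so far passed limma's test or edgeR's. At an unadjusted limma p under 0.05 were 3 adapter and signalling genes, 2 granule genes and 1 receptor gene outside the complex, beside 3.89% of all genes.

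Markers of other cells were examined because NK or CD8 cells in a culture would bring these receptors. The NK markers Ncr1, Klra4 and Klra8 had no read in any library, and Klrb1c had 2 reads in 1 ADAR2_E396A library and none elsewhere. The 9 NK markers summed to 1062.2 and 223 normalized counts in empty-vector cells, 2219.6 and 156.9 with ADAR2_E396A and 639.8 and 228.4 with ADAR2_WT. Gzma, a granzyme gene that T cells also express, and Itga2, an integrin gene, held most of these sums. Of the 4 NK markers tested, 3 were lower with ADAR2_WT, each in both donors, with a median of -0.62 for the 4. None passed by limma, where 1 had an unadjusted p under 0.05. Over all genes tested, 31.5% were lower in both donors and 14.1% had an unadjusted limma p under 0.05. Klre1, among these 3, is given above with the neighbours picked for their values. Eomes, a transcription factor gene, had 13.5 and 21.4 normalized counts in empty-vector cells, 20.7 and 19.2 with ADAR2_E396A and 7.8 and 11.5 with ADAR2_WT (-0.78, SE 0.40, limma adjusted p = 0.415). The CD8 genes Cd8a and Cd8b1 together had 159.3 and 177.2 with the empty vector, 155.7 and 148.2 with ADAR2_E396A and 174.8 and 161.5 with ADAR2_WT, and these groups overlapped. Cd8a alone had 9.4 and 65.2, 23.6 and 36.6, and 16.5 and 19.6 in the same order, so that its ADAR2_WT level was above the empty vector in donor A and below it in donor B. The part of other cells in the levels of the members was not tested. Sums ran from 53.1 to 108.1 for γδ and NKT cell markers, 28.2 to 56.2 for B cell markers and 43.7 to 65.4 for myeloid markers.

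The genes whose log2 values ran most like the mean of the standardized members, among 10207 protein-coding genes whose mean normalized count was 50 or more, were Zfp759 (Pearson r = 0.996), Cmip (0.988), Kctd11 (0.986), Rnf43 (0.983) and Slc39a14 (0.982). These are correlations over 6 libraries that share donors, picked as the highest of many, and they carry no test. Zfp759, a zinc finger gene, had 111.4 and 101.3 normalized counts in empty-vector cells, 98.5 and 102.9 with ADAR2_E396A and 72.8 and 77.3 with ADAR2_WT. Kctd11 had 437.4 and 413.9, 389.1 and 407.9, and 244.7 and 238.8 in the same order. In each of these 5 genes the ADAR2_WT libraries were the lowest pair, a pattern that the ranking itself selects for. None of the 5 lies on chromosome 6.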

How the data were processed

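The authors deposited 2 tables, 1 per construct, each with DESeq2 results beside normalized counts (a signal of 0 or more) for 4 libraries. Per the file headers, the results are a log2 fold change with its error, a Wald statistic (a score) and p-values. The submitters' processing notes name mm10, DESeq2 1.18.1, featureCounts and STAR 2.6.1a, without strand settings.

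The members and gene lists were chosen with earlier results of these data known. Library columns carry no group label: those found in both tables were read as empty vector, the rest as the construct in the table's name. Donor pairs were those for which a DESeq2 1.42.0 refit returned the authors' deposited Wald statistics (largest difference 0 over 28601 genes and 1e-04 over 28872; 13.8 and 6.08 with donors crossed).

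Whole reads were recovered from the columns (100% of values within 0.001 of a read), scaled with median-of-ratios size factors, filtered by filterByExpr of edgeR 4.0.16 and tested as log2(normalized count + 1) in limma 3.58.1 (R 4.3.3). The model held all 6 libraries and terms for donor and group; p-values were adjusted by Benjamini-Hochberg over all genes, with a threshold of 0.05. Fold changes on this scale understate those of low genes. limma replaced the count test because the deposited values are not raw counts. Its mean-variance trend was added after the data were examined: the fit without it called 0 genes in each comparison and found none of the changes put into simulated data. Residual degrees of freedom were 2, with 6.424 borrowed across genes. Genes named were the 5 members, Adarb1, up to 4 passing genes per list or otherwise the 2 most abundant, the 5 genes most like the members, and markers; other genes are marked in the text as picked later. Alternatives tried: TMM factors, edgeR's test, other pseudocounts and filters, fewer libraries and no donor term.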

Additional observations from a re-analysis of the deposited data

How the results depend on the processing

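Only 2 libraries a group limit every value, and Klrc2 rests on few reads. The direction of each member's difference between ADAR2_WT and either other group was the same in all 14 alternatives. The members were chosen for being low with ADAR2_WT, and the alternatives reuse the same libraries. This agreement is therefore a description only. The pairing of libraries by donor matters for the calls: with no replicate block, genes passing went from 2 to 1 for ADAR2_E396A against the empty vector, from 122 to 2 for ADAR2_WT against the empty vector and from 10 to 0 between the constructs, and no adapter, outside-receptor or granule gene passed (0 in each list). Without the mean-variance trend, chosen after seeing the data, 0 genes passed in each comparison and 0 in those lists. The cause of these shifts was not tested.

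With no filter on low values, 5, 220 and 102 genes passed in the 3 comparisons, and with the 4 libraries of a comparison alone 1, 1237 and 194. TMM factors gave 39 between the constructs. For ADAR2_WT against the empty vector, other receptors of the complex and genes within 1 Mb each gave 1 passing gene with TMM factors and 1 with no filter, and granule genes 4 with no filter. With the 4 libraries alone the lists gave 3 (other receptors), 4 (adapters), 8 (regulators), 5 (outside receptors), 7 (granule genes) and 4 (within 1 Mb). Between the constructs, outside receptors gave 1 with TMM factors, 1 with no filter and 1 with the 4 libraries, and granule genes 2, 4 and 4. The Klrc2 difference with ADAR2_WT was -1.72 with a pseudocount of 5. Outside the leave-one-out fits, 119 of 120 member values stayed within the spread between replicates or on their side of the threshold. This count says little about stability. With ADAR2_E396A against the empty vector each member began far from the threshold, at a limma adjusted p of 0.999. The other comparisons hold the ADAR2_WT libraries that the choice of members used. Of the list counts, 143 of 168 stayed equal or close to the main count.

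Leaving out 1 library at a time, where the lone library of a group is assumed to vary like the others, gave 1 to 127 passing genes for ADAR2_E396A against the empty vector, 1 to 1217 for ADAR2_WT and 0 to 844 between the constructs. Member differences for ADAR2_E396A ran from -0.49 to 0.22 (Klrc1), -1.24 to 0.25 (Klrc2), -0.92 to 0.20 (Klrd1), -0.49 to 0.17 (Klrk1) and -0.98 to -0.47 (Styk1). The sign turned for Klrc1 (0.22), Klrd1 (0.20) and Klrk1 (0.17) without donor A's empty-vector library, and for Klrc1 (0.20) and Klrc2 (0.25) without the ADAR2_E396A library of donor A. With ADAR2_WT against the empty vector they ran from -2.23 to -1.53 (Klrc1), -2.90 to -1.64 (Klrc2), -2.98 to -1.81 (Klrd1), -1.82 to -0.94 (Klrk1) and -1.78 to -1.27 (Styk1). Between the constructs they ran from -2.08 to -1.42 (Klrc1), -2.52 to -1.02 (Klrc2), -2.62 to -1.45 (Klrd1), -1.66 to -0.78 (Klrk1) and -1.02 to -0.59 (Styk1). List counts ran from 0 to 4 (other receptors), 0 to 4 (adapters), 0 to 1 (ligands), 0 to 7 (regulators), 0 to 5 (outside receptors), 0 to 7 (granule genes) and 0 to 5 (within 1 Mb) with ADAR2_WT. With ADAR2_E396A they ran from 0 to 3 and between the constructs from 0 to 7.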
